A study of Mus musculus with 6 samples.

Results

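The interferon response and MHC class I presentation were followed through 42 genes in mouse colon, taken by symbol from the deposited table. They comprise 22 genes of the type I response, 9 GTPases that interferon-gamma induces, 10 genes of class I antigen presentation and the transcription factor Irf1. Of the 42, 40 had a row among the 25339 genes of the table, and all 40 passed the filter of a mean of 1 FPKM (fragments per kilobase of gene, scaled to the library's total) that 11774 genes passed. Mx1 and Mx2 matched no row and were not analysed here. RNA came from colon of mice given the solvent DMSO (3 libraries, the control group) or lenvatinib (3 libraries), a kinase inhibitor that blocks the receptors of vascular endothelial and fibroblast growth factors among others. The labels describe both groups by tissue and treatment alone and give no strain, age, genotype, dose, duration or induction of colitis. Epithelial markers such as Car1, Epcam and Cdx2 were abundant in all 6 libraries, while Hoxb13, a marker of the distal end, was listed at 0 to 0.02 FPKM. In 6 of 8 small intestine markers that passed the filter, every lenvatinib library lay above every DMSO library, against 10% of all genes. Fabp6 measured 1.44 to 2.28 FPKM with DMSO and 148 to 161 FPKM with lenvatinib, and Defa24 0 to 1.13 and 94.8 to 139 FPKM. For Fabp2 and Alpi the groups overlapped.

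Interferons are antiviral cytokines that reach the nucleus by related routes. Type I and type III interferons act through a complex that holds STAT2 and IRF9, which binds the interferon-stimulated response element (ISRE) and switches on antiviral effectors such as Isg15, the Ifit and Oas genes and Irf7. Interferon-gamma, made mainly by T cells and NK cells, acts through the gamma-activated site (GAS). It induces Irf1, the guanylate-binding proteins (Gbp), the immunity-related GTPases (Iigp1, Igtp, Irgm1) and the genes that load peptides on MHC class I. In the gut, type III interferon and interferon-gamma both act on the epithelium.

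RefSeq promoter windows of build GRCm38.p6 (250 bases before to 50 after a gene's start) were found for 30 of the 42 members. They were searched on both strands for an ISRE core, which is TTTC, any 2 bases and TTTC again (GAAA, 2 bases and GAAA on the other strand), and for the palindromic GAS, TTCNNNGAA. Matches to the ISRE core may overlap each other. An ISRE core occurred in 9 of 15 type I genes with a window (60%), in 6 of 6 GTPases and in 1 of 8 class I genes, against 3.99% of all 27025 genes with a window. A GAS occurred in 3 of 15, 3 of 6 and 1 of 8, and in Irf1, against 9.55% of all genes. A match is only a stretch of letters and shows no binding. The 150 bases before the start are printed for members on which the comparison turns, 5′ to 3′ on the gene's strand, with the ISRE core in capitals. They lie at chr4:156200819-156200968, minus strand (Isg15), chr19:34640739-34640888, plus strand (Ifit1), chr5:120777660-120777809, minus strand (Oas3), chr3:142620513-142620662, plus strand (Gbp2), chr11:58199406-58199555, plus strand (Igtp), chr11:48871421-48871570, minus strand (Irgm1) and chr2:122147537-122147686, plus strand (B2m).
Isg15: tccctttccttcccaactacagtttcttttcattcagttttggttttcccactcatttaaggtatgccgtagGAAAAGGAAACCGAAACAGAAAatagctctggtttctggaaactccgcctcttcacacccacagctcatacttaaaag
Ifit1: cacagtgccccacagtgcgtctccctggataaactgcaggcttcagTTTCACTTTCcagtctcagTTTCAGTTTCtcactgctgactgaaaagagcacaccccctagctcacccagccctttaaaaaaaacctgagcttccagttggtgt
Oas3: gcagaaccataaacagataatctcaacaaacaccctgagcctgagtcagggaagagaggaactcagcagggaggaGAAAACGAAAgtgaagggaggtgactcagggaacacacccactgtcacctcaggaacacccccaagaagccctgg
Gbp2: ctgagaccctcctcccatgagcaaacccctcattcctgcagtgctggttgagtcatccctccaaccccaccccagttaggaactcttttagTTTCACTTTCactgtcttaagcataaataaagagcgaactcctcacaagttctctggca
Igtp: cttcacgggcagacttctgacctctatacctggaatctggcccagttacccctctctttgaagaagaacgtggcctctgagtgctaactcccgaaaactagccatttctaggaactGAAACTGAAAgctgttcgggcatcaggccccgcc
Irgm1: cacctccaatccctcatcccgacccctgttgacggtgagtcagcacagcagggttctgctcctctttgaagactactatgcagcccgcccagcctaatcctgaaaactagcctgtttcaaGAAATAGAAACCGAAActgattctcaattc
B2m: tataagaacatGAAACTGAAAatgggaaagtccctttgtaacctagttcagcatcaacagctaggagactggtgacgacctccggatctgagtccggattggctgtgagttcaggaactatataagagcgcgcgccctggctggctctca

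For Irf1 (chr11:53769864-53770013, plus strand) and Psmb8 (chr17:34198045-34198194, plus strand) of the same build the capitals mark the GAS.
Irf1: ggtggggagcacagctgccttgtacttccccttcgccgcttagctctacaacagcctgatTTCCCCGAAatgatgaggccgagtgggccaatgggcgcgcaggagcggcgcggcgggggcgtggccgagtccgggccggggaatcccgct
Psmb8: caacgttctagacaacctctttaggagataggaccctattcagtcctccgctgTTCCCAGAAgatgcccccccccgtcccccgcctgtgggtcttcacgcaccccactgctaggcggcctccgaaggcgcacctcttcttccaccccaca
Isg15 held 3 overlapping ISRE cores and Ifit1 held 2, as printed, and Gbp2, Igtp and Irgm1 held the same core. The ISRE core thus occurred in both lists, in 9 of 15 type I genes and 6 of 6 GTPases with a window. The GAS occurred in 3 of 15 and 3 of 6, among them Igtp, where it is not marked. How these letters relate to the order of the transcripts across libraries was not tested.

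Recovered depth was 37660486 to 39287738 reads in genes per library. Libraries 2 and 3 of each group were close to each other. In units of counting noise their median squared deviation was 2.53 (DMSO) and 2.28 (lenvatinib), where the other pairs gave 10.1 to 24.9. DMSO 1 also stood apart in sex-linked transcripts. It had Ddx3y at 6.54 FPKM (0 in the other 5 libraries) and Xist at 0.00147 FPKM (15.9 to 19.8 in the others). The libraries are labelled as biological replicates without an animal named, so the p-values measure the spread between libraries, which may be technical in part. Levels below are FPKM, which are per length, so a comparison between genes rests on the gene lengths that the authors used. Where 3 values follow each other they are those of libraries 1, 2 and 3. The log2 fold change is the lenvatinib mean less the DMSO mean of log2(FPKM + 1), a scale that shrinks the change of low genes. Adjusted p-values are from limma over all 11774 genes.

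None of the 40 members passed the test between the groups. No member was called higher or lower at an adjusted p below 0.05, where 2.03% of all genes tested were called (1.1% higher and 0.934% lower), and 1 member, Irf9, had an unadjusted p below 0.05, against 22% of all genes. In no member were the 3 lenvatinib libraries all above or all below the 3 DMSO libraries, while 27.5% of all genes had such groups (10% higher and 17.5% lower). What the members showed instead was a wide and ordered spread among libraries of the same label. The range among the 3 lenvatinib libraries exceeded the size of the log2 fold change in 39 of the 40 members, against 71.5% of all genes, and Bst2 was the exception. Interferon-gamma GTPases and class I genes were high in lenvatinib 1, DMSO 2 and DMSO 3 and low in DMSO 1, lenvatinib 2 and lenvatinib 3. Most type I genes were ordered the other way.

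**Figure D1:**
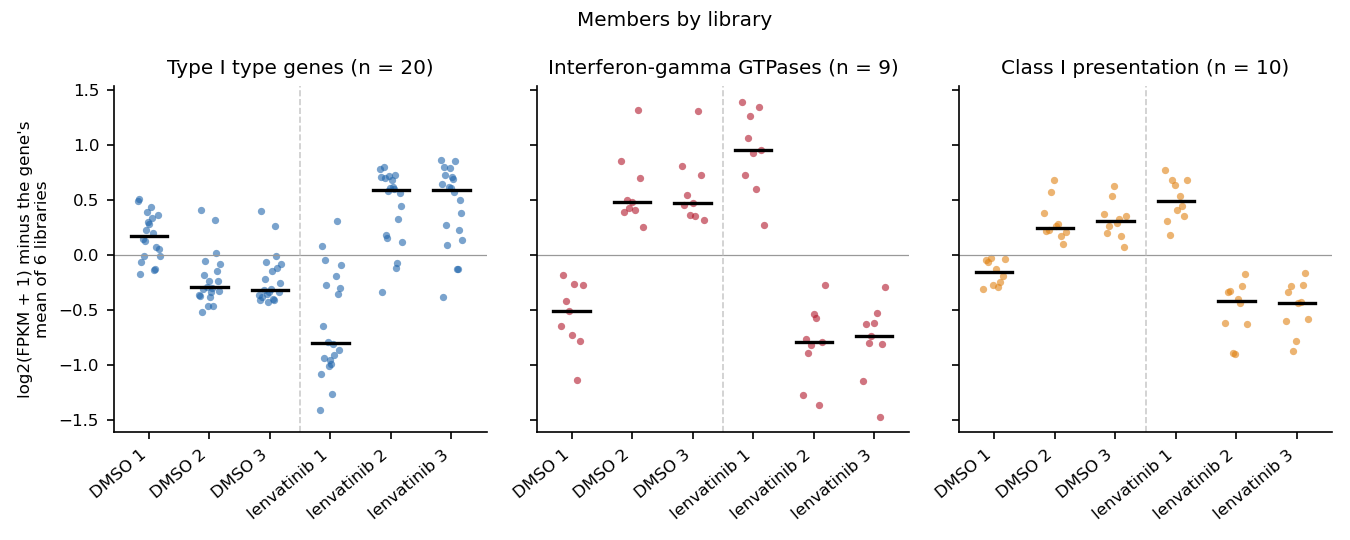
Each point is 1 member, plotted by library as log2(FPKM + 1) minus that gene's mean over the 6 libraries, in panels for 20 type I genes, 9 interferon-gamma GTPases and 10 class I genes; black bars are medians over the members. In lenvatinib 1 the median is −0.80 for the type I genes, 0.96 for the GTPases and 0.49 for class I, and in lenvatinib 2 it is 0.59, −0.79 and −0.41.

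As a median over its members, relative to each gene's mean of the 6 libraries, the type I list stood at 0.17, −0.30 and −0.31 with DMSO, against −0.80, 0.59 and 0.59 with lenvatinib on the log2 scale. The GTPases stood at −0.51, 0.49 and 0.48 with DMSO, against 0.96, −0.79 and −0.74 with lenvatinib. The class I genes had the order of the GTPases with a smaller spread, at −0.16, 0.24 and 0.31 with DMSO, against 0.49, −0.41 and −0.43 with lenvatinib. Over all 11774 genes the same medians lay between −0.068 and 0.045, but genes of opposite order cancel in such a median. Highest over lowest lenvatinib library, the median member differed 2.99-fold among type I genes, 3.61-fold among GTPases and 1.89-fold among class I genes. The median was 1.21-fold over the 11752 tested genes above 0 in every library. Among the 3 DMSO libraries these values were 1.52, 2.35 and 1.38, against 1.14.

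The ubiquitin-like modifier Isg15, one of the first genes that type I interferon induces, measured 87.1, 47.5 and 47.6 FPKM with DMSO and 22.6, 107 and 113 FPKM with lenvatinib. Lenvatinib 1 was the lowest and lenvatinib 2 and 3 the highest of all libraries, so the groups overlapped (log2 fold change 0.16, SE 0.64, adjusted p = 0.891). Irf7, the transcription factor that amplifies the type I response, measured 138, 101 and 99.99 FPKM in the DMSO libraries, against 64.9, 204 and 208 FPKM after lenvatinib. Ifit1 and Ifit3 encode proteins that bind viral RNA or its sensors. Ifit1 measured 36.5, 19.3 and 18.9 FPKM in DMSO 1 to 3 against 11.5, 42.04 and 40.2 FPKM in lenvatinib 1 to 3. Ifit3 measured 7.63, 5.296 and 5.92 FPKM with DMSO and 4.75, 14.7 and 14.7 FPKM with lenvatinib, the largest positive fold change of the list (0.64, SE 0.41, adjusted p = 0.367). Again lenvatinib 1 lay below every DMSO library and lenvatinib 2 and 3 above.

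The Oas enzymes make the second messenger that activates RNase L. Oas1a measured 66.7, 46.3 and 43.99 FPKM in the DMSO libraries, against 32.3, 85.5 and 87.9 FPKM after lenvatinib. Oas2, the least abundant of the 4, measured 3.98, 1.75 and 1.81 FPKM in DMSO 1 to 3 against 0.878, 5.22 and 5.57 FPKM in lenvatinib 1 to 3, and Oas3 measured 22.6, 15.3 and 14.2 FPKM with DMSO and 8.87, 28.3 and 28.3 FPKM with lenvatinib. Oasl2, a relative that also carries ubiquitin-like domains, measured 63.8, 39.9 and 42.02 FPKM in the DMSO libraries, against 25.8, 84.4 and 85.99 FPKM after lenvatinib. All 4 had the library order of Isg15: lenvatinib 1 lowest, DMSO 1 above DMSO 2 and 3, and lenvatinib 2 and 3 highest. Rsad2, which encodes the antiviral enzyme viperin, spanned the widest relative range among the lenvatinib libraries of any type I gene, at 0.8901, 5.99 and 6.34 FPKM (7.13-fold), and 5.18, 2.61 and 3.11 FPKM in DMSO 1 to 3. Oas1a and its relative Oas1g are similar copies, so their reads could be split between them.

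The same order held across most of the list. Lenvatinib 1 was the lowest of the 6 libraries in 16 of 20 type I genes, against 13.7% of all genes. DMSO 1 lay above DMSO 2 and 3 in 17 of 20 (36.2% of all genes), and lenvatinib 2 and 3 both lay above every DMSO library in 16 of 20 (19.7%). Usp18, which removes Isg15 from proteins, measured 15.5, 9.55 and 8.86 FPKM in DMSO 1 to 3 against 6.40, 18.7 and 18.4 FPKM in lenvatinib 1 to 3. Ifi44, an antiviral gene of the same response, measured 4.23, 2.29 and 2.41 FPKM with DMSO and 1.42, 6.504 and 7.20 FPKM with lenvatinib. Usp18 and Ifi44 had the library order of Isg15 in full, as had the RNA sensors. Ifih1, for the sensor MDA5, measured 20.4, 17.3 and 17.7 FPKM in the DMSO libraries, against 14.8, 24.5 and 22.8 FPKM after lenvatinib. Dhx58, for its partner LGP2, measured 12.3, 7.75 and 7.19 FPKM in DMSO 1 to 3 against 4.67, 14.3 and 13.6 FPKM in lenvatinib 1 to 3 and so varied more than Ifih1.

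Members with smaller fold change errors were the factors that carry the signal and a few low-range genes. Irf9, the DNA-binding subunit of the type I complex, measured 23.3, 20.4 and 19.9 FPKM with DMSO and 22.6, 26.6 and 28.5 FPKM with lenvatinib (log2 fold change 0.27, SE 0.11, adjusted p = 0.209). Lenvatinib 1 lay below DMSO 1 but above DMSO 2 and 3, so the groups overlapped only by lenvatinib 1 and DMSO 1. Stat2, its partner, measured 20.3, 17.7 and 17.6 FPKM in the DMSO libraries, against 15.1, 20.7 and 19.7 FPKM after lenvatinib (−0.011, SE 0.13, of opposite sign under median-of-ratios and quantile scaling). Xaf1, a proapoptotic factor, measured 3.401, 2.37 and 2.54 FPKM in DMSO 1 to 3 against 2.43, 4.74 and 4.51 FPKM in lenvatinib 1 to 3 (0.35, SE 0.22). Parp14, a mono-ADP-ribosyltransferase, measured 19.7, 18.7 and 18.7 FPKM with DMSO and 18.5, 21.5 and 21.9 FPKM with lenvatinib (0.11, SE 0.078). In each of Irf9, Xaf1 and Parp14, lenvatinib 2 and 3 were the highest 2 libraries.

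Ifit2, Bst2 and Zbp1 departed from the rest of the list. Ifit2, a relative of Ifit1, measured 19.2, 29.2 and 29.0 FPKM in the DMSO libraries, against 23.04, 17.1 and 16.5 FPKM after lenvatinib, with DMSO 2 and 3 highest (log2 fold change −0.42, SE 0.20, adjusted p = 0.266). Bst2, which encodes the virion tether tetherin, measured 60.6, 83.3 and 80.2 FPKM in DMSO 1 to 3 against 58.2, 61.2 and 60.8 FPKM in lenvatinib 1 to 3 (−0.30, SE 0.13, adjusted p = 0.233). Its 3 lenvatinib libraries were close to DMSO 1 and below DMSO 2 and 3, and Bst2 was the only member called without DMSO 1 (adjusted p = 0.033; 1.22% of all genes were called higher and 1.05% lower there). Zbp1, a sensor of Z-form nucleic acids, measured 36.4, 40.4 and 39.5 FPKM with DMSO and 49.7, 37.8 and 36.2 FPKM with lenvatinib, with lenvatinib 1 highest as in the GTPases.

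**Figure D2:**
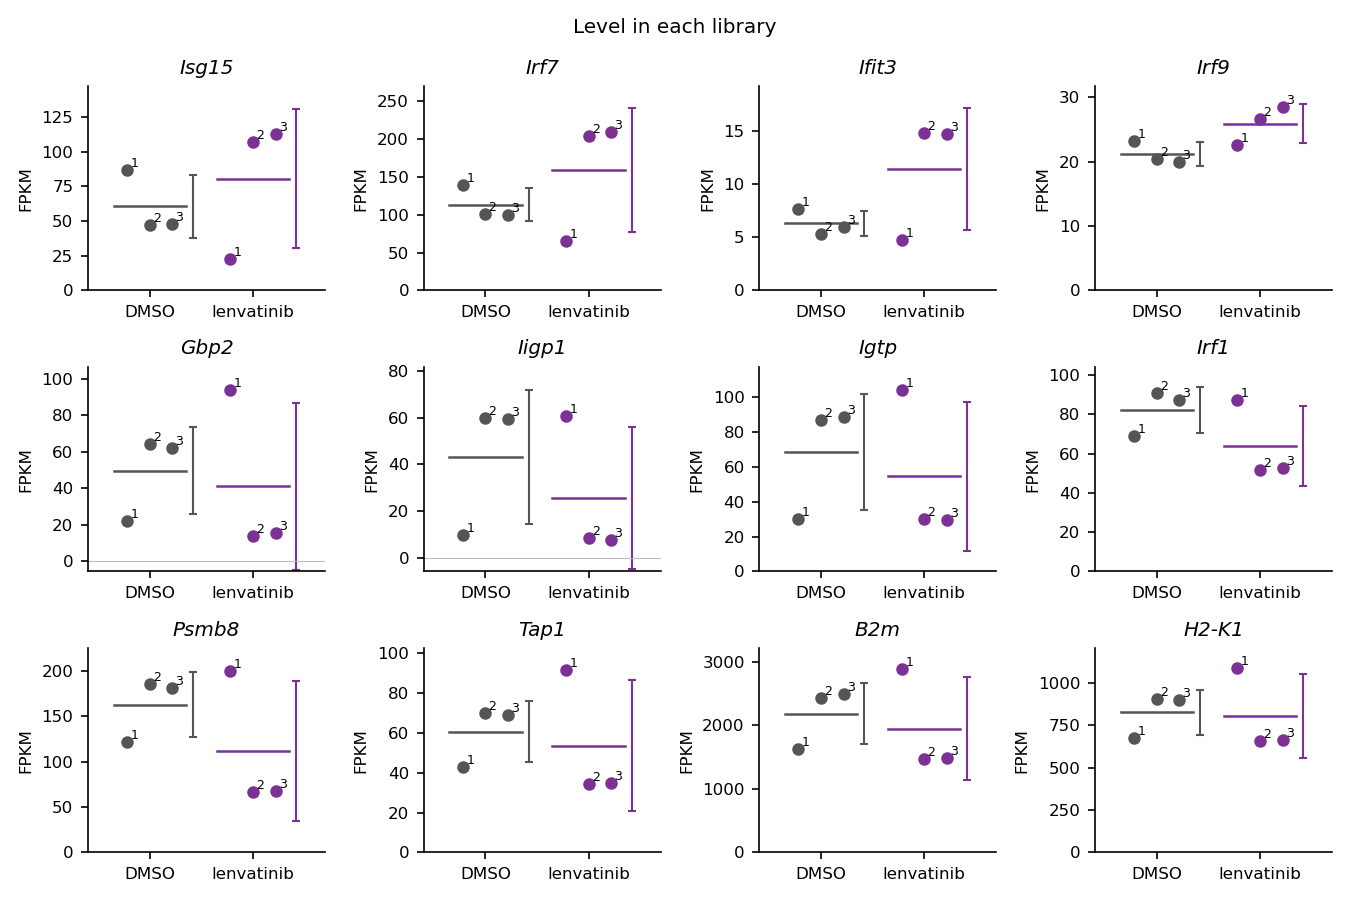
FPKM of 12 genes in each library, numbered by replicate, with the group mean (line) and SD (bar, n = 3 per group). Isg15, Irf7 and Ifit3 are lowest in lenvatinib 1, whereas Gbp2, Igtp, Psmb8, Tap1 and B2m are highest there, and the 2 groups overlap in every panel.

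The interferon-gamma GTPases varied most. These proteins disrupt the vacuoles of intracellular microbes. Gbp2 measured 22.01, 64.3 and 62.3 FPKM in the DMSO libraries, against 93.8, 13.8 and 15.3 FPKM after lenvatinib. Lenvatinib 1 was the highest library and lenvatinib 2 and 3 the lowest, and the group means were 49.5 ± 23.9 FPKM in DMSO and 40.97 ± 45.7 FPKM in lenvatinib (SD, n = 3), the SD under lenvatinib exceeding its mean (log2 fold change −0.68, SE 0.80, adjusted p = 0.612). Iigp1 measured 10.03, 59.7 and 59.6 FPKM in DMSO 1 to 3 against 60.8, 8.47 and 7.78 FPKM in lenvatinib 1 to 3, with DMSO 2, DMSO 3 and lenvatinib 1 at a like level and the other 3 libraries well below it. Its fold change was the most negative of all members (−0.99, SE 0.99, adjusted p = 0.548). Igtp, for the regulatory GTPase Irgm3, measured 30.3, 86.8 and 88.4 FPKM with DMSO and 104, 30.2 and 29.7 FPKM with lenvatinib. Irgm1, a regulator of the same family and of autophagy, measured 46.95, 67.9 and 70.8 FPKM in the DMSO libraries, against 68.7, 46.7 and 46.1 FPKM after lenvatinib, a narrower range (−0.20, SE 0.22).

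The less abundant Gbp transcripts other than Gbp6 had the order of Gbp2. Gbp3 measured 6.66, 10.4 and 10.9 FPKM in DMSO 1 to 3 against 13.4, 4.13 and 4.61 FPKM in lenvatinib 1 to 3 (−0.44, SE 0.42) and Gbp4 measured 2.35, 5.32 and 5.53 FPKM with DMSO and 8.33, 1.41 and 1.56 FPKM with lenvatinib (−0.42, SE 0.57). Gbp5, which promotes inflammasome assembly, measured 2.66, 6.01 and 5.71 FPKM in the DMSO libraries, against 11.5, 1.96 and 2.13 FPKM after lenvatinib (−0.19, SE 0.60), and Gbp7 measured 3.81, 6.702 and 6.37 FPKM in DMSO 1 to 3 against 7.76, 2.89 and 3.01 FPKM in lenvatinib 1 to 3 (−0.33, SE 0.36). Gbp6, at 2.54, 7.19 and 7.14 and 10.1, 3.02 and 2.798 FPKM, was the one member of the list whose lenvatinib 2 and 3 did not lie below every DMSO library. In all, lenvatinib 1 was the highest of the 6 in 8 of 9 GTPases, against 25.3% of all genes, with Irgm1 the exception. DMSO 1 lay below DMSO 2 and 3 in 9 of 9 (49.3% of all genes) and lenvatinib 2 and 3 lay below every DMSO library in 8 of 9 (46.6%). Members of the Gbp family are similar in sequence, so reads may be split between them, and the low Gbp genes rested on 231 to 1879 reads per library.

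Irf1, the transcription factor that interferon-gamma induces and that acts on many class I genes, measured 69.04, 90.6 and 87.2 FPKM with DMSO and 87.1, 51.8 and 52.6 FPKM with lenvatinib (log2 fold change −0.39, SE 0.22, adjusted p = 0.322). Lenvatinib 1 lay with DMSO 2 and 3, and lenvatinib 2 and 3 were the lowest libraries.

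Class I presentation begins with the immunoproteasome, in which Psmb8, Psmb9 and Psmb10 replace the constitutive catalytic subunits Psmb5, Psmb6 and Psmb7. Psmb8 measured 122, 186 and 181 FPKM in the DMSO libraries, against 200.4, 66.4 and 67.3 FPKM after lenvatinib (−0.73, SE 0.45, adjusted p = 0.358). Psmb9 measured 51.1, 100.4 and 96.7 FPKM in DMSO 1 to 3 against 96.8, 32.8 and 35.7 FPKM in lenvatinib 1 to 3 (−0.70, SE 0.47, adjusted p = 0.389). Psmb10 measured 119.6, 157 and 159.7 FPKM with DMSO and 174, 98.95 and 95.9 FPKM with lenvatinib (−0.28, SE 0.25). Lenvatinib 2 and 3 were the lowest libraries for all 3 subunits, and lenvatinib 1 the highest for Psmb8 and Psmb10.

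The constitutive subunits varied less, so the balance between the 2 forms differed among libraries. As a ratio of FPKM, Psmb8 over Psmb5 was 1.12, 1.35 and 1.39 with DMSO and 1.697, 0.618 and 0.640 with lenvatinib. Psmb9 over Psmb6 was 0.620, 1.04 and 1.02, then 1.04, 0.405 and 0.424 in the same order. Psmb10 over Psmb7 was 0.984, 1.09 and 1.15, then 1.34, 0.859 and 0.878. By these ratios each immunoproteasome transcript was below its constitutive counterpart in lenvatinib 2 and 3, and above it in DMSO 2 and 3. The gene lengths used set the size of a ratio, but not its order among libraries. Psmb5 itself measured 109, 137 and 129.8 FPKM in the DMSO libraries, against 118, 107 and 105 FPKM after lenvatinib, and none of the 3 constitutive genes was called (log2 fold changes −0.18, −0.078 and −0.19).

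Peptides enter the endoplasmic reticulum through the transporter of Tap1 and Tap2 and are held at the class I molecule by tapasin, the product of Tapbp. Tap1 measured 42.8, 69.7 and 68.98 FPKM in DMSO 1 to 3 against 91.4, 34.4 and 34.7 FPKM in lenvatinib 1 to 3. Tap2 measured 37.5, 45.1 and 44.6 FPKM with DMSO and 48.2, 30.4 and 30.5 FPKM with lenvatinib (−0.24, SE 0.19) and Tapbp 109, 133 and 136 FPKM in the DMSO libraries, against 129, 90.4 and 93.3 FPKM after lenvatinib (−0.28, SE 0.16, adjusted p = 0.326). Nlrc5, the transactivator of class I genes, was the least abundant of the list at 2.78, 3.504 and 3.97 FPKM in DMSO 1 to 3 against 5.24, 1.51 and 1.59 FPKM in lenvatinib 1 to 3 (−0.35, SE 0.36). All 4 were lowest in lenvatinib 2 and 3, and Tap1, Tap2 and Nlrc5 were highest in lenvatinib 1.

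The class I molecule itself gave the most abundant transcripts of the list. B2m, for β2-microglobulin, the light chain shared by all class I molecules, measured 1627, 2428 and 2495 FPKM with DMSO and 2889, 1474 and 1483 FPKM with lenvatinib. H2-K1, a classical heavy chain, measured 671, 902 and 900.4 FPKM in the DMSO libraries, against 1088, 657 and 662 FPKM after lenvatinib, and H2-D1, the other, 877, 1073 and 1052 FPKM in DMSO 1 to 3 against 1279, 887 and 893 FPKM in lenvatinib 1 to 3. The 2 heavy chains had the smallest fold changes of the list (−0.068, SE 0.23, and 0.011, SE 0.17), and in H2-D1 lenvatinib 2 and 3 were both above DMSO 1. Neither sign was stable: H2-K1 stood at 0.0088 under median-of-ratios scaling, 0.12 with libraries 2 and 3 averaged and −0.31 without lenvatinib 1, and H2-D1 at 0.14 averaged and −0.16 without lenvatinib 1. H2-K1 and H2-D1 are similar in sequence to each other and to the H2-Q and H2-T genes, and vary between strains, so their single values are uncertain. In all, lenvatinib 1 was the highest library in 8 of 10 class I genes (25.3% of all genes). DMSO 1 lay below DMSO 2 and 3 in 10 of 10 (49.3%), and lenvatinib 2 and 3 lay below every DMSO library in 9 of 10 (46.6%).

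**Figure D3:**
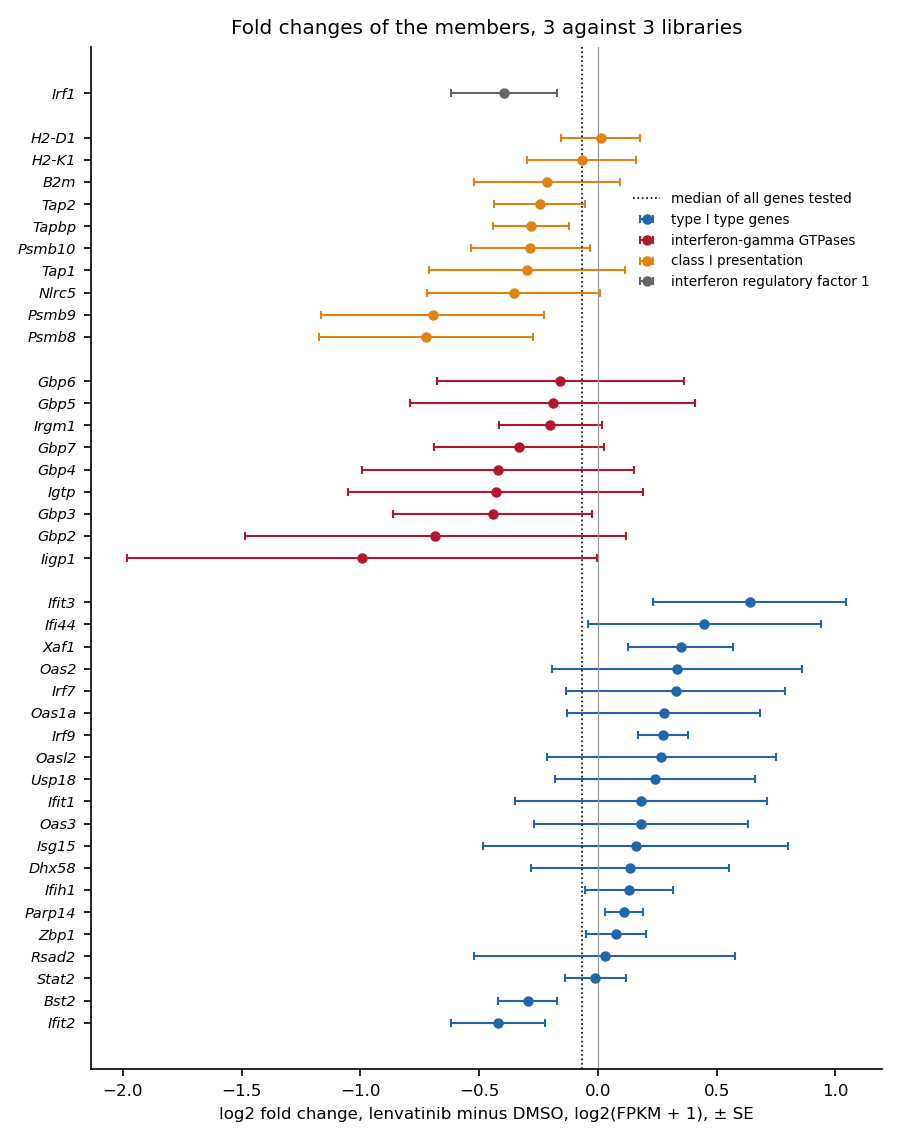
Log2 fold changes of the 40 members (lenvatinib minus DMSO, log2(FPKM + 1), ± SE, 3 libraries per group), coloured by list; the dotted line is the median of all genes tested, −0.068. Of the type I genes 17 of 20 lie above 0 and all 9 GTPases below, and no member passed the test.

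By count, 17 of 20 type I genes had a positive fold change, with a median of 0.18 (−0.42 to 0.64). All 9 GTPases had a negative one, with a median of −0.42 (−0.99 to −0.16), and so did 9 of 10 class I genes, with a median of −0.28 (−0.73 to 0.011). The median of all genes tested was −0.068, with 7528 of 11774 negative. With libraries 2 and 3 of each group averaged, the medians were −0.11 for the type I genes, which turned negative, −0.0017 for the GTPases and −0.083 for class I. Then 18 of the 40 members had the opposite sign, and 6 of 20 type I genes were positive, 5 of 9 GTPases negative and 6 of 10 class I genes negative. The ratio of Gbp2 to Isg15 FPKM, a pair chosen after their values were seen, was 0.253, 1.35 and 1.31 with DMSO and 4.15, 0.130 and 0.136 with lenvatinib.

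The calls turned on lenvatinib 1. Without it, 12 of 20 type I genes were called higher, 9.91% of all genes being called so, and 3 GTPases, 7 class I genes and Irf1 were called lower (11 of 40), against 28.1% of all genes. The 12 were Isg15, Ifit3, Irf7, Irf9, Oas1a, Oas2, Oas3, Oasl2, Ifi44, Ifih1, Xaf1 and Parp14. The 11 were Gbp3, Gbp4, Gbp7, Tap1, Tap2, Tapbp, Psmb8, Psmb9, Psmb10, Nlrc5 and Irf1. The list medians were then 0.69, −0.92 and −0.55. For Isg15 the log2 fold change was 0.90 (adjusted p = 0.0491), for Ifit3 1.12 (0.00323), for Psmb8 −1.25 (0.0063) and for Irf1 −0.64 (0.0126). These calls compare DMSO with 2 lenvatinib libraries that were nearly identical, and 38% of all genes passed there, so the count over the members is to be read against that share.

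**Figure D4:**
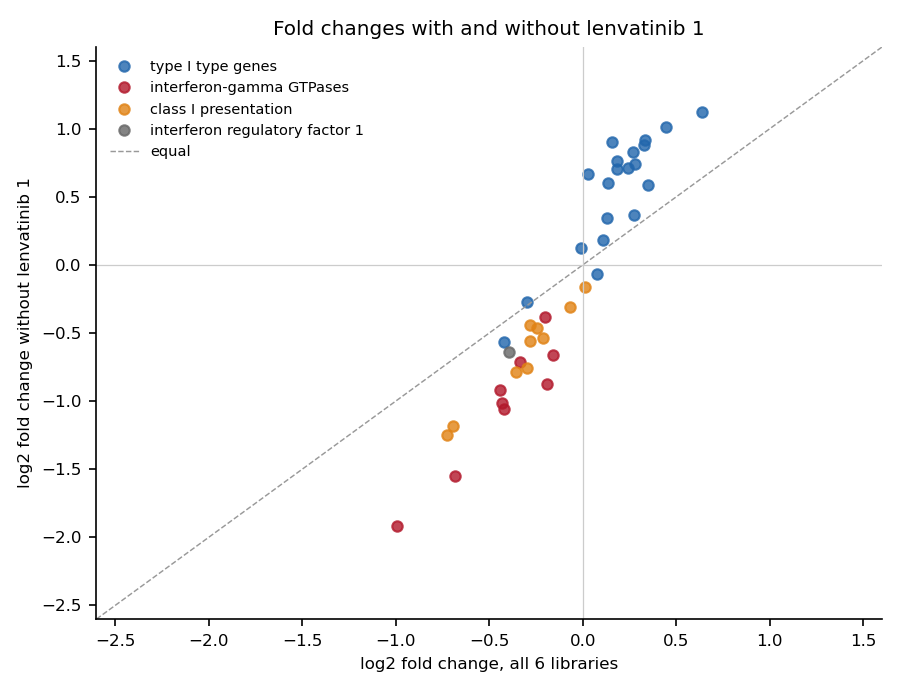
Log2 fold change of each of the 40 members with all 6 libraries (x axis) and without lenvatinib 1 (y axis), coloured by list; the dashed line marks equal values. Most type I genes lie above the line (Isg15 at 0.16 and 0.90) and the GTPases and class I genes below it (Psmb8 at −0.73 and −1.25).

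Upstream of the members, 9 interferon genes were looked up and 4 had a row: Ifng, Ifnk, Ifnl2 and Ifnl3. The other 5, all of type I, were not analysed here. Ifng, for interferon-gamma, was listed at 0.131, 0.626 and 0.509 FPKM with DMSO and 0.691, 0.0212 and 0 FPKM with lenvatinib, which rest on 6, 30, 24, 32, 1 and 0 recovered reads. It was below the filter and not tested, and its 3 higher libraries were the 3 in which the GTPases were high. The type III genes Ifnl2 and Ifnl3 had 0 or 1 read per library and Ifnk had none. Of the 15 interferon and receptor genes listed, 6 were tested, all receptor chains, and none was called. Ifngr2, a chain of the interferon-gamma receptor, measured 92.6, 86.04 and 88.4 FPKM with DMSO and 92.5, 116 and 118 FPKM with lenvatinib (0.28, SE 0.10, adjusted p = 0.201). Ifnar2, of the type I receptor, measured 3.39, 3.85 and 3.29 FPKM in the DMSO libraries, against 3.81, 2.17 and 2.29 FPKM after lenvatinib. Il10rb, a chain of the type III receptor, measured 32.2, 33.8 and 34.8 FPKM in DMSO 1 to 3 against 33.5, 37.9 and 37.95 FPKM in lenvatinib 1 to 3.

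Of 13 signalling genes none was called. In 3 the unadjusted p was below 0.05 (Ptpn6, Socs3 and Jak1), against 22% of all genes. The groups did not overlap in 3 of the 13 (Socs3 higher, Ptpn6 and Jak2 lower with lenvatinib), against 27.5% of all genes. Ptpn6, a phosphatase of haematopoietic cells, measured 25.3, 29.7 and 29.5 FPKM with DMSO and 23.5, 13.9 and 13.5 FPKM with lenvatinib (−0.74, SE 0.21, adjusted p = 0.135). Socs3, an inhibitor of cytokine signalling, measured 20.8, 10.7 and 12.7 FPKM in the DMSO libraries, against 30.02, 22.3 and 21.3 FPKM after lenvatinib (0.74, SE 0.25, adjusted p = 0.179). The kinase Jak1 measured 27.8, 29.1 and 30.4 FPKM in DMSO 1 to 3 against 28.3, 22.4 and 22.2 FPKM in lenvatinib 1 to 3. Of 13 nucleic acid sensing genes none was called, and in 3 the lenvatinib libraries all lay lower, against 17.5% of all genes. Tlr7, a receptor for single-stranded RNA in myeloid and B cells, came closest at 1.34, 1.402 and 1.602 FPKM with DMSO and 0.893, 0.625 and 0.588 FPKM with lenvatinib (−0.53, SE 0.10, adjusted p = 0.0649). Irf5, a factor downstream of it, measured 2.42, 2.42 and 2.54 FPKM in the DMSO libraries, against 1.98, 1.46 and 1.38 FPKM after lenvatinib (−0.41, SE 0.10, adjusted p = 0.11), and Irf3 measured 21.9, 21.4 and 22.4 FPKM in DMSO 1 to 3 against 19.4, 19.4 and 19.1 FPKM in lenvatinib 1 to 3.

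Of 35 further interferon-stimulated genes tested none was called, also none at an unadjusted p below 0.05, against 22% of all genes. The 3 with the smallest p were Sp100, Phf11d and Cd274. Sp100, a nuclear body protein, measured 9.32, 8.19 and 7.94 FPKM with DMSO and 7.803, 7.16 and 7.51 FPKM with lenvatinib. The groups did not overlap in 2 of the 35, Sp100 (lower) and Parp9 (higher), against 27.5% of all genes. Phf11d measured 5.48, 4.22 and 4.43 FPKM in the DMSO libraries, against 4.43, 7.25 and 6.95 FPKM after lenvatinib. Cd274, for the checkpoint ligand PD-L1, measured 4.43, 5.37 and 5.395 FPKM in DMSO 1 to 3 against 5.83, 2.65 and 2.57 FPKM in lenvatinib 1 to 3, lowest in lenvatinib 2 and 3. Over these 35 genes lenvatinib 1 was the lowest library in 17 (13.7% of all genes) and the highest in 13 (25.3%). Lenvatinib 2 and 3 lay below every DMSO library in 10 (46.6%) and above in 16 (19.7%), so the list had no single order. Of its genes that interferon-gamma induces, 4 are given, chosen after their values were seen. Ido1, which degrades tryptophan, measured 5.305, 44.1 and 43.0 FPKM with DMSO and 62.1, 1.54 and 1.69 FPKM with lenvatinib. The T cell chemokine Cxcl9 measured 2.36, 14.2 and 15.1 FPKM in the DMSO libraries, against 14.5, 1.26 and 1.55 FPKM after lenvatinib, and the GTPase gene Tgtp1 measured 2.78, 16.8 and 17.7 FPKM in DMSO 1 to 3 against 19.1, 2.25 and 2.41 FPKM in lenvatinib 1 to 3, though Tgtp1 and Tgtp2 are near copies whose reads could be split. In these 3 lenvatinib 2 and 3 were the lowest libraries. The chemokine Cxcl10 measured 3.299, 11.2 and 11.9 FPKM with DMSO and 12.7, 4.07 and 4.76 FPKM with lenvatinib, with DMSO 1 the lowest library instead. Of 27 further class I pathway genes tested none was called and 4 had an unadjusted p below 0.05, against 22% of all genes. Fcgrt, the neonatal Fc receptor, measured 50.8, 57.1 and 57.2 FPKM in the DMSO libraries, against 64.5, 72.5 and 69.5 FPKM after lenvatinib (0.32, SE 0.076, adjusted p = 0.105). It was 1 of 3 genes among these 27 with every lenvatinib library above every DMSO library, against 10% of all genes. H2-T3, the thymus leukaemia antigen of gut epithelium, measured 43.6, 52.7 and 52.6 FPKM in DMSO 1 to 3 against 55.1, 62.6 and 62.8 FPKM in lenvatinib 1 to 3, and Pdia3, a chaperone of the loading complex, 242, 272 and 265 FPKM with DMSO and 249, 194 and 192 FPKM with lenvatinib.

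Markers of immune cells also differed across the libraries, in an order that varied by list. In bulk RNA, fewer cells of a type and less RNA per cell cannot be told apart. Of 14 T and NK cell markers, 12 had a row and 10 were tested, with none called. Their summed level was 77.3, 114 and 116 FPKM in the DMSO libraries, against 150.4, 22.4 and 24.2 FPKM after lenvatinib. This sum was highest in the library with the highest GTPases and lowest in lenvatinib 2 and 3. Lenvatinib 2 and 3 lay below every DMSO library in 9 of the 10 (46.6% of all genes). Klrd1 was the exception, at 3.85, 2.47 and 2.59 FPKM with DMSO and 4.88, 1.85 and 2.85 FPKM with lenvatinib. Ncr1, an NK cell marker below the filter, was highest in lenvatinib 2 and 3 (0.532 and 0.554 FPKM). The 7 MHC class II genes, which interferon-gamma also induces, summed to 2303, 3143 and 3209.5 FPKM in DMSO 1 to 3 against 3483, 633 and 648 FPKM in lenvatinib 1 to 3, with none called. The 12 macrophage and monocyte markers summed to 773, 921 and 954 FPKM with DMSO and 502, 357 and 354 FPKM with lenvatinib. Of these 12, 9 were called lower, against 0.934% of all genes. With libraries 2 and 3 averaged none was called, but only 4 of 11774 genes (0.034%) were called there. In 10 of the 12 all 3 lenvatinib libraries lay below every DMSO library, against 17.5% of all genes. The groups overlapped for Cd14, with lenvatinib 1 above DMSO 2 and 3, and for Ly6c2. Ly6c2, a marker of inflammatory monocytes, measured 12.3, 27.2 and 30.3 FPKM in the DMSO libraries, against 20.9, 8.63 and 8.34 FPKM after lenvatinib, low in DMSO 1, lenvatinib 2 and lenvatinib 3 like the GTPases. Of 10 dendritic and plasmacytoid cell markers 3 were tested and none called, with sums of 12.6, 14.9 and 15.5 FPKM in DMSO 1 to 3 against 17.5, 7.002 and 7.06 FPKM in lenvatinib 1 to 3. The 8 B cell markers summed to 81.5, 65.9 and 70.4 FPKM with DMSO and 40.4, 7.66 and 9.11 FPKM with lenvatinib, with 5 tested and none called (smallest adjusted p = 0.068). In all 5 every lenvatinib library lay below every DMSO library, against 17.5% of all genes. All 5 also had an unadjusted p below 0.05, against 22% of all genes. The 12 colon epithelium markers, 11 tested and none called, summed to 11709, 12674 and 12962 FPKM in the DMSO libraries, against 10575, 13986 and 13919 FPKM after lenvatinib. Car1 alone made up most of each sum, at 7823, 9238 and 9567 FPKM with DMSO and 7590, 10357 and 10327 FPKM with lenvatinib. Of 8 small intestine markers tested 6 were called higher, against 1.1% of all genes. With libraries 2 and 3 averaged 1 was called, Fabp6, against 0.034% of all genes. Fabp6, the bile acid binding protein of the ileum, measured 1.44, 2.28 and 2.27 FPKM in DMSO 1 to 3 against 161, 159.8 and 148 FPKM in lenvatinib 1 to 3. Fabp2, the most abundant of the list in every library, was not called (log2 fold change −0.27). No marker of the T and NK, class II, macrophage, dendritic or B cell lists was at 0 in any library. The part of these cells and tissues in the levels of the members was not tested.

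**Figure D5:**
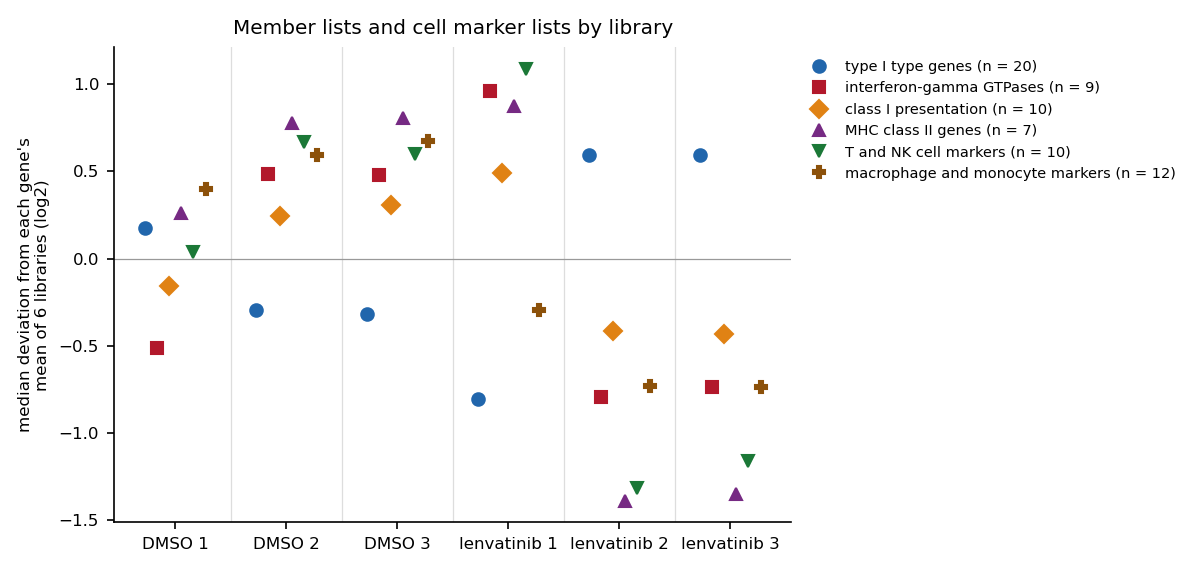
Median over each list of the deviation from each gene's mean of the 6 libraries (log2), by library, for the 3 member lists and 3 cell marker lists. T and NK markers (1.09) and MHC class II genes (0.88) are high in lenvatinib 1 with the GTPases (0.96), while type I genes stand at −0.80 and macrophage markers at −0.29.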

How the data were processed

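RNA sequencing libraries from colon of mice given DMSO or lenvatinib (3 per group) were compared. Groups and replicate numbers come from the sample titles. FPKM values were computed by the authors and deposited as a single table. HTSeq, a read counter, and the build GRCm39 appear per the submitters' processing notes, with no role given. For the aligner, annotation and strand setting nothing is given in the sources used here. Promoter windows are from GRCm38.p6, so they carry that build's coordinates and were joined to the data by symbol alone.

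Whole reads were recovered from the FPKM steps within 0.01 reads for 99.81% of the 23951 genes above 0, and served for depth and the voom alternative. Depth was 37660486 to 39287738 reads in genes, so counting error is small for members. The 11774 genes averaging 1 FPKM or more were tested on log2(FPKM + 1) with limma 3.58.1 in R 4.3.3 (trended, robust prior, two-sided, Benjamini-Hochberg over all genes, threshold 0.05). The fit was also run on simulated libraries, each drawn independently. That simulation had no close pairs such as libraries 2 and 3, so it cannot show how the fit behaves with them. Alternatives covered pseudocount, filter, scaling, prior, voom, the replicate block, libraries 2 and 3 averaged or blocked, and leaving out each library.

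The members and lists were chosen with earlier results of these data known. Named members are those called, those without overlap, up to 6 per list by unadjusted p, and 4 by range among lenvatinib libraries. Pathway genes are up to 3 per list, with Ifng. A gene that the rule also names is not reported here. Other genes given with values, and the promoters shown, were chosen after the values were seen, for their role.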

Additional observations from a re-analysis of the deposited data

How the results depend on the processing

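Over the 17 alternatives, no member was called in 15. The exceptions were leaving out lenvatinib 1, with 12 members higher and 11 lower, and leaving out DMSO 1, with 1 lower; over the left-out libraries the counts ran from 0 to 12 higher and 0 to 11 lower. The whole table gave 239 calls, 140 without a filter, 29 with the replicate block, 4 with libraries 2 and 3 averaged and 46 with them as a random block, and 44 to 4456 when a library was left out (44 to 58 without DMSO 2, DMSO 3, lenvatinib 2 or lenvatinib 3, 267 without DMSO 1 and 4456 without lenvatinib 1). Same-numbered libraries of the 2 groups did not deviate together (correlations −0.196, −0.159 and −0.151), and the replicate block called no member. Libraries 2 and 3 were close in each group, so these correlations are not independent. Shared handling of same-numbered libraries was not tested. Of the 40 members, 18 had the opposite sign with libraries 2 and 3 averaged, 16 with them as a random block, and 9 each without lenvatinib 2 or lenvatinib 3. The other alternatives turned 0 to 3. Among members chosen by the naming rule, Isg15, Gbp4 and Gbp5 turned. With the pairs averaged, and as a random block, the log2 fold change was −0.36 and −0.32 for Isg15, 0.054 and 0.016 for Gbp4, and 0.30 and 0.26 for Gbp5. With a library left out it ran from −0.23 to 0.90 for Isg15 and from −0.87 to 0.17 for Gbp5. Median-of-ratios scaling moved the list medians to 0.26, −0.35 and −0.21. Every member rested on at least 129 reads per library, and the spread between libraries of a group exceeded counting noise.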
